A study of Homo sapiens with 12 samples.

Results

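PRR14L, MAP1B, ZNF292 and PEAK1 are 4 long genes whose transcripts carried many fewer mapped N6-methyladenosine (m6A) sites when HEK293E cells were given the mTOR inhibitor Torin1. They are 4 of the 17520 genes in the expression table, and they were picked for the largest losses of sites between the list from cells given insulin and Torin1 and the list from cells given insulin alone. Their site numbers are therefore given as a description with no test, and what was tested is their mRNA level in the separate input libraries. That level is not independent of the choice, since the number of sites depends on the amount of RNA. The members held 83 of the 63578 sites in the insulin+Torin1 list and 392 of the 96671 sites in the insulin list, counted in the annotated gene body on the gene's strand.

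HEK293E is an established human line derived from embryonic kidney cells. All cells were kept without serum overnight and then received insulin at 200 nM for 30 h. The insulin+Torin1 cells had been pretreated with Torin1 at 250 nM, and the insulin cells had not, so there was no group without insulin or with serum. Poly(A) RNA was taken through miCLIP or sequenced as input, in 3 replicates for each of the 4 groups: insulin+Torin1 miCLIP, insulin miCLIP, insulin+Torin1 input and insulin input. The labels call the replicates biological, but separate cultures are not named, and a p-value here reflects only how far these libraries differ from each other, which may be a technical spread.

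In m6A a methyl group is placed on adenosines of mRNA, mostly by the METTL3-METTL14 complex at short motifs, and the mark is known for lying in long internal exons and near stop codons and for reader proteins that speed the decay of marked transcripts. In miCLIP an antibody against m6A is crosslinked to RNA, and substitutions in the reads locate the methylated base. mTOR is the kinase through which growth factors and nutrients control translation and growth, and Torin1 blocks both of its complexes. MAP1B encodes a microtubule-associated protein best known from growing axons, PEAK1 encodes a pseudokinase scaffold of the cytoskeleton and of growth factor signalling, ZNF292 encodes a large zinc finger protein linked to neurodevelopmental disorders, and PRR14L encodes a proline-rich protein related to the nuclear lamina tether PRR14.

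Each deposited site came with a 5-base sequence with the methylated adenosine in its middle, and where neighbouring sites overlapped their bases could be joined. The sequences below are some of those whose adenosines lay 4 or 5 bases apart, close enough for 1 read to span them. In each such sequence, printed or not, the Torin1 list kept either 1 of the adenosines or 0. Capitals mark adenosines in the insulin list, and positions are in the hg38 build.
PRR14L, chr22:31715320-31715329, minus strand: gaAcaggAca
MAP1B, chr5:72197297-72197306, plus strand: ggAcaagAct
MAP1B, chr5:72199922-72199931, plus strand: agAcaaaAct
ZNF292, chr6:87258053-87258061, plus strand: tgActaAct
ZNF292, chr6:87262069-87262078, plus strand: gaActaaAca
PEAK1, chr15:77109821-77109834, minus strand: agAcaaActggAct
In PRR14L the second capital had 2 substituted of 17 reads with Torin1 and 11 of 81 with insulin, while the first was listed with insulin alone, at 3 of 82 reads. Neither adenosine of either MAP1B sequence was in the Torin1 list, and with insulin they had 2 of 45, 1 of 51, 1 of 62 and 5 of 37 substituted reads. Of the 3 adenosines of PEAK1, 1 was listed with Torin1, with 1 substituted of 21 reads, against 2 of 44, 2 of 43 and 1 of 42 with insulin. In ZNF292 the first sequence was absent from the Torin1 list and had 1 of 56 and 2 of 55 with insulin. The second kept 1 adenosine, with 2 of 11 with Torin1, against 1 of 9 and 1 of 31 at its adenosines with insulin. Most sites, like these, rested on 1 or 2 substituted reads.

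PRR14L, on chromosome 22 from 31681347 to 31750132, had 12 sites with Torin1 and 102 with insulin, a loss of 90 and the largest of any gene. MAP1B, on chromosome 5 from 72107475 to 72209565, had 11 sites with Torin1 and 99 with insulin, a loss of 88. ZNF292, on chromosome 6 from 87155565 to 87265943, had 23 with Torin1 and 90 with insulin, a loss of 67. PEAK1, on chromosome 15 from 77100654 to 77420914, had 37 with Torin1 and 101 with insulin, a loss of 64. The number of Torin1 sites was thus 11.8%, 11.1%, 25.6% and 36.6% of the number of insulin sites for PRR14L, MAP1B, ZNF292 and PEAK1.

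The boundary of the choice is not sharp. CASP8AP2, which encodes a protein of apoptosis and histone gene expression, lost 67 sites (19 with Torin1 and 86 with insulin), the same as ZNF292 and more than PEAK1, and its expression was not analysed here. The next genes, MKI67, KMT2D and USF3, lost 60 sites each. As a background, of 2721 genes with 10 or more insulin sites, 89.5% had fewer, and of the 58 genes with 50 or more, 100% had. Choosing genes by the insulin list alone favours fewer sites with Torin1, so these shares are no measure of a general loss. As the members were chosen on this contrast, nothing is read from their place in it. SPEN, MKI67, SON and SRRM2, the 4 genes with the most sites over both lists summed, had 272 sites with Torin1 and 424 with insulin together.

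The lists name each position once, under 1 replicate, so agreement between miCLIP replicates could not be computed. With Torin1, 56298 of all sites were under replicate 1, 1552 under replicate 2 and 5728 under replicate 3, while the insulin list held 50656, 39670 and 6345. PRR14L had 10, 1 and 1 sites under replicates 1, 2 and 3 with Torin1, against 59, 39 and 4 with insulin. MAP1B had 10, 0 and 1 with Torin1, against 60, 32 and 7 with insulin. Under replicate 1 alone the Torin1 number was 16.9% of the insulin number for PRR14L and 16.7% for MAP1B.

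ZNF292 had 19, 0 and 4 sites under replicates 1, 2 and 3 with Torin1, against 38, 48 and 4 with insulin. PEAK1 had 32, 2 and 3 with Torin1, against 62, 36 and 3 with insulin. Under replicate 1 alone, the Torin1 number was 50% of the insulin number for ZNF292 and 51.6% for PEAK1, although only 11 of the 38 and 17 of the 62 insulin positions were under replicate 1 in both lists. A large share of the difference in numbers lay in sites that the insulin list gives under replicate 2. Ranked by the loss under replicate 1, MAP1B was 1st, PRR14L 2nd, PEAK1 5th and ZNF292 16th. That loss is part of the loss on which the members were chosen, so nothing is read from these ranks.

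**Figure D1:**
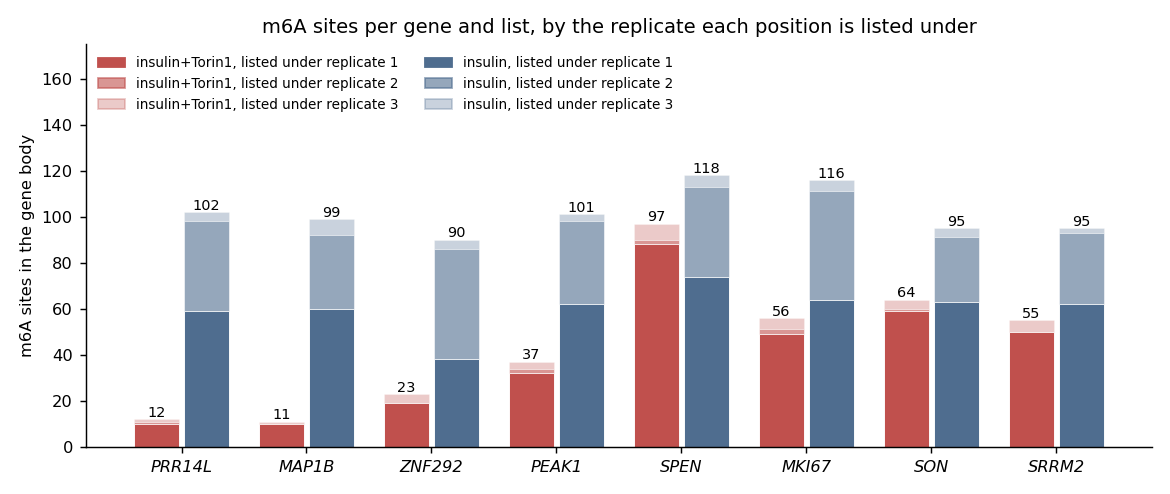
Number of m6A sites in the gene body (vertical axis) for the 4 members and for SPEN, MKI67, SON and SRRM2, with insulin+Torin1 at left in each pair and insulin at right. Shades give the replicate under which a position is listed, and replicate 2 adds 39 sites to PRR14L with insulin but 1 with Torin1.

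Sites over the members also held fewer reads with Torin1. The median number of reads over a site was 10.5 with Torin1 and 24 with insulin for PRR14L, 5 and 19 for MAP1B, 8 and 21 for ZNF292, and 10 and 19 for PEAK1. Over all sites the order was the other way, with a median of 12 reads with Torin1 and 8 with insulin. SPEN had 55 with Torin1 and 21 with insulin, SON 62.5 and 37, SRRM2 40 and 32, and MKI67 23 and 17.5. Summed over sites, PRR14L had 152 reads with Torin1 and 3066 with insulin, MAP1B had 55 and 2270, ZNF292 had 210 and 2140, and PEAK1 had 520 and 2363. The fewer sites of the members therefore came with fewer reads at the sites that were listed.

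Most Torin1 sites of the members were positions that the insulin list held too. All 12 PRR14L sites were, as were 8 of 11 in MAP1B, 18 of 23 in ZNF292 and 27 of 37 in PEAK1. Seen from the insulin list, the share of positions that recurred with Torin1 was 11.8% for PRR14L (95% Wilson interval 6.86 to 19.4), 8.08% for MAP1B (4.15 to 15.1), 20.0% for ZNF292 (13.0 to 29.4) and 26.7% for PEAK1 (19.1 to 36.1). Among the 4 genes with the most sites, it was 61.0% for SPEN (52.0 to 69.3) and 53.7% for SON (43.7 to 63.4). For SRRM2 it was 48.4% (38.6 to 58.3), and for MKI67 35.3% (27.2 to 44.4), an interval that overlaps that of PEAK1. These intervals cover the counting of positions and nothing else.

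Pooled over the 4 genes, of the 65 shared positions 35.4% had 3 or more substituted reads with insulin, against 22.3% of the 327 that were in the insulin list alone. In PRR14L 7 of the 32 insulin sites with 3 or more substituted reads recurred, in MAP1B 3 of 22, in ZNF292 3 of 17 and in PEAK1 10 of 25. ZNF292 did not follow the pooled direction in reads: its shared positions had a median of 18.5 insulin reads and its insulin-only positions 21.5, whereas in PRR14L, MAP1B and PEAK1 the shared positions had more. A single substituted read carried 69.9% of the members' Torin1 sites and 52.3% of their insulin sites, against 59.6% and 61.6% of all sites in the Torin1 and insulin lists.

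Single positions show both outcomes. In PRR14L the site with the most substituted reads with insulin, ggAca at chr22:31715322, is the second capital of the sequence printed above. Another, agAct at chr22:31712398, had 8 substituted of 57 reads with insulin and was not listed with Torin1, whereas agAct at chr22:31738839 had 5 of 21 with Torin1 and 3 of 31 with insulin. In MAP1B gaAct at chr5:72205233, 4332 nt from the annotated end, had 5 of 85 reads with insulin and was not listed with Torin1. MAP1B's best Torin1 site, tgAca at chr5:72199228, had 2 of 6 reads, against 2 of 29 with insulin. These positions of both genes were thus either absent with Torin1 or covered by fewer reads.

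In ZNF292 gaAca at chr6:87256602 had 5 of 18 reads with insulin and was not listed with Torin1, while gaAct at chr6:87257862 had 3 of 13 reads with Torin1 and 2 of 26 with insulin. PEAK1 kept more of its strong sites. Its ggAca at chr15:77114262 had 3 of 43 reads with Torin1 and 19 of 78 with insulin, its ggAct at chr15:77114803 had 4 of 42 with Torin1 and 9 of 82 with insulin, and its ggAct at chr15:77113658 had 9 of 56 with insulin alone.

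The sites were not spread evenly along the genes. They lay in dense runs with a median spacing of 63 nt in PRR14L, 58 nt in MAP1B, 65 nt in ZNF292 and 51 nt in PEAK1 in the insulin list, and the runs below were split at gaps over 3000 nt, a value chosen after the positions were seen. Exons were not mapped here, so a run is not assigned to an exon or a UTR.

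In PRR14L the run farthest upstream, 57227 to 57542 nt from the annotated end of the gene, held 2 sites with Torin1 and 5 with insulin. The main run, 30880 to 35850 nt from the end, held 7 with Torin1 and 59 with insulin. The run at the 3′ end, 449 to 4243 nt from the end, held 3 with Torin1 and 38 with insulin. Those 3 remaining sites at the 3′ end had a median of 1 read, against 26.5 for the 38 insulin sites.

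MAP1B had 2 large runs. The upstream one, 9260 to 15617 nt from the end, held 10 sites with Torin1 and 58 with insulin. The 3′ one, 327 to 5994 nt from the end, held 1 with Torin1 and 38 with insulin, and that 1 position was not in the insulin list. No insulin position of MAP1B within that 3′ run was therefore listed with Torin1. ZNF292 had nearly all its sites, 23 with Torin1 and 89 with insulin, in a single run of 7675 nt that ended 3619 nt from the end of the gene.

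PEAK1 differed from run to run. Its upstream run, 78248 to 81339 nt from the end, held 12 sites with Torin1 and 20 with insulin, of which 4 were shared, so 8 of the 10 PEAK1 positions found in the Torin1 list alone lay there. These 8 had 2 to 23 reads each. The middle run, 32429 to 32916 nt from the end, kept 7 of 12 sites. The longest run, 7874 to 14586 nt from the end, held 17 with Torin1 and 67 with insulin.

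With the sites divided by distance, those within 5000 nt of the annotated end of PRR14L numbered 3 with Torin1 and 38 with insulin (7.89%), against 9 and 64 farther away (14.1%). In MAP1B they numbered 1 and 34 near the end (2.94%), against 10 and 65 farther away (15.4%). In ZNF292 they numbered 4 and 14 near the end (28.6%), against 19 and 76 farther away (25.0%), and PEAK1 had 1 Torin1 site and no insulin site that near. The other 54 genes with 50 or more insulin sites together had 536 Torin1 and 1220 insulin sites near the end (43.9%), against 1152 and 2457 farther away (46.9%). Of 36 of these with 10 or more insulin sites in both parts, 20 had the lower percentage near the end, so the lower value near the end was shared by PRR14L and MAP1B but was not a general feature.

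**Figure D2:**
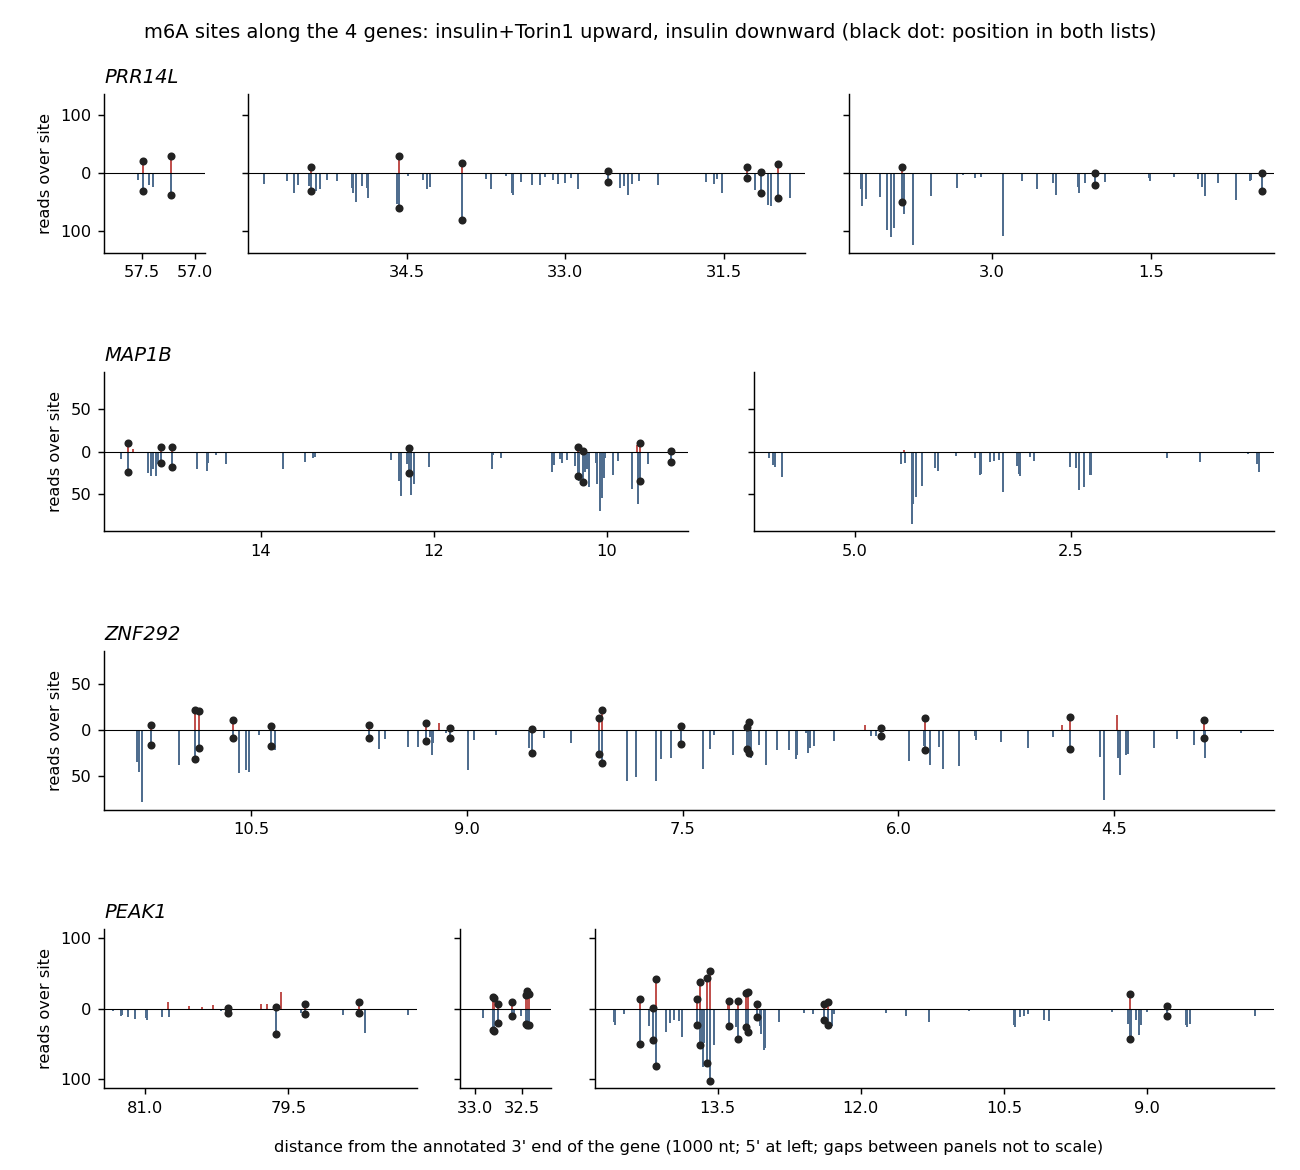
Reads over each m6A site (vertical axis) against the distance from the annotated 3′ end in units of 1000 nt (horizontal axis, 5′ at left), in the runs longer than 100 nt of each member, with insulin+Torin1 upward and insulin downward. Black dots mark positions in both lists, and the 3′ run of MAP1B has 1 bar upward against 38 downward.

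The letters before the methylated adenosine differed between the members. GGAC, the motif known as the preferred m6A context, made up 41.7% of PRR14L sites with Torin1 and 20.6% with insulin, and 32.4% of PEAK1 sites with Torin1 and 19.8% with insulin. In MAP1B it was 2 of 11 sites with Torin1 and 13.1% with insulin, and in ZNF292 1 of 23 with Torin1 and 5.56% with insulin. Over all sites it made up 32.9% with Torin1 and 31.5% with insulin. ZNF292 was instead rich in AAAC, with 35.6% of its insulin sites against 12.1% over all insulin sites.

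Within the insulin list, GGAC stood at 5 of the 12 shared and 16 of the 90 insulin-only positions of PRR14L, and at 2 of 8 and 11 of 91 in MAP1B. It stood at 1 of 18 shared and 4 of 72 insulin-only positions in ZNF292, and at 7 of 27 and 13 of 74 in PEAK1. The share was higher among shared positions in PRR14L, MAP1B and PEAK1 and about equal in ZNF292, with few sites behind each value.

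Positions listed under replicate 1 in both lists compare reads at the same bases, although only bases called in both lists enter. Over 832 genes with 5 or more such positions, the median log2 ratio of reads, Torin1 over insulin, was 0.77, since the Torin1 reads were more numerous: reads over all replicate 1 sites summed to 2309379 with Torin1 and 1026159 with insulin. In PRR14L the median over 8 positions was -1.55 (range -2.25 to -0.34), and reads were lower with Torin1 at 8 of 8. In MAP1B it was -2.06 over 6 positions, and reads were lower at 6 of 6. In PEAK1 it was -0.97 over 17 positions, lower at 17 of 17, and in ZNF292 -0.76 over 11 positions, lower at 8 of 11. Relative to the median of all these genes, the members lay at -2.32 for PRR14L, -2.83 for MAP1B, -1.53 for ZNF292 and -1.74 for PEAK1. The members were chosen for sites missing from the Torin1 list, and a site is found only where reads cover it. The choice thus favoured low Torin1 reads, and these values are a description with no test. SPEN, at a median log2 ratio of 1.58, had higher reads at all 49 of its positions. The medians of SON, SRRM2 and MKI67 were 0.94, 0.38 and 0.18, and MKI67 had lower reads with Torin1 at 10 of 21 positions.

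The substituted share of reads at those same positions was higher with Torin1 in PRR14L, MAP1B and ZNF292 and nearly equal in PEAK1, as a description with no test. It was 13.8% with Torin1 and 8.88% with insulin in PRR14L, 22.6% and 9.09% in MAP1B, 13.0% and 9.86% in ZNF292, and 10.1% and 10.7% in PEAK1. MAP1B's 22.6% rested on 7 substituted of 31 reads. In SPEN the share was 4.01% with Torin1 and 9.25% with insulin, over 5635 and 1600 reads. It was 4.72% and 9.12% in SON, 4.82% and 6.85% in SRRM2, and 7.73% and 8.59% in MKI67. A position is listed only where it has a substituted read, so the share in thinly covered genes is bounded from below, and its part in these values was not tested.

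**Figure D3:**
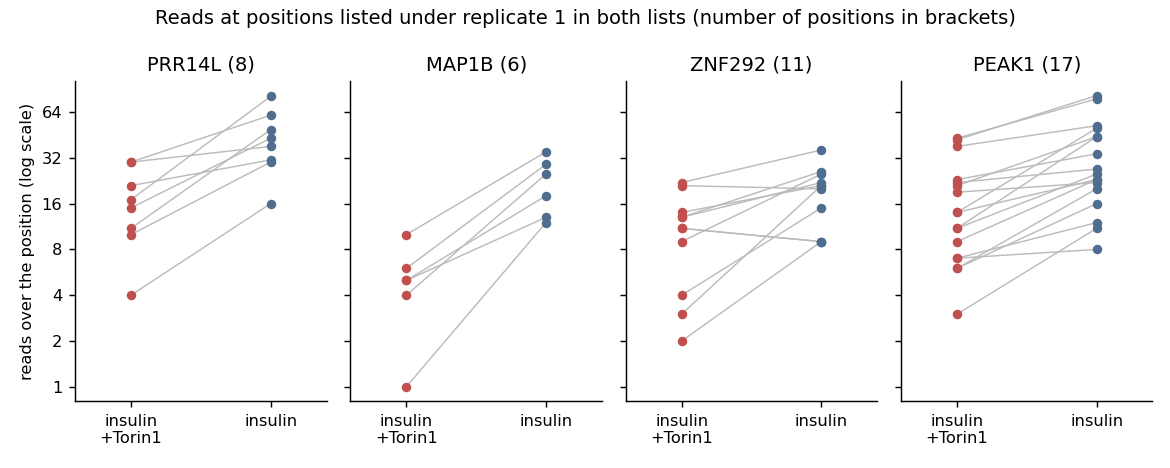
Reads over positions listed under replicate 1 in both lists (vertical axis, log scale), with insulin+Torin1 at left and insulin at right in each panel and a line for each position. All lines of PRR14L (8), MAP1B (6) and PEAK1 (17) lie lower with insulin+Torin1, as do 8 of 11 in ZNF292.

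The mRNA of all 4 genes was lower with Torin1 in the input libraries. The choice of genes did not use these libraries, but it was not independent of mRNA level. Across 52 other tested genes with many insulin sites, site-number ratios and mRNA changes, both log2, correlated (Pearson's r = 0.77). A choice by the largest site losses therefore favours genes with lower mRNA, and the calls and p-values below carry that choice. At an adjusted p below 0.05 limma called all 4 lower, as it did 42.5% of the 13842 tested genes, and in all 4 every Torin1 library lay below every insulin library, as in 42.8% of genes. Values are the authors' normalized units, on which a gene can be compared between libraries but not with a gene of another length. PRR14L had 1067, 1076 and 1091 units in the Torin1 libraries, against 10291, 10467 and 9857 in the insulin libraries. The groups lay far apart, with means of 1078 ± 12.1 and 10205 ± 314 (SD, n = 3 each). The log2 fold change was -3.24 with a standard error of 0.0337 (95% interval -3.31 to -3.17, limma, adjusted p = 1.17e-26), so that the Torin1 level was 10.6% of the insulin level.

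MAP1B had 1016, 1054 and 1008 units in the Torin1 libraries, against 6754, 6434 and 6874 in the insulin libraries. All Torin1 values lay below all insulin values, at means of 1026 ± 24.6 and 6687 ± 227 (SD, n = 3 each). Its log2 fold change was -2.70 with a standard error of 0.0363 (95% interval -2.78 to -2.63, limma, adjusted p = 9.24e-25), which left 15.3% of the insulin level.

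ZNF292 had 1810, 1899 and 1777 units in the Torin1 libraries, against 7982, 8489 and 8090 in the insulin libraries. Again no Torin1 library reached an insulin library, and the means were 1829 ± 63.1 and 8187 ± 267 (SD, n = 3 each). The log2 fold change was -2.16 with a standard error of 0.0350 (95% interval -2.23 to -2.09, limma, adjusted p = 1.96e-23), or 22.3% of the insulin level.

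PEAK1 had 1543, 1531 and 1613 units in the Torin1 libraries, against 5060, 5085 and 4980 in the insulin libraries. The groups did not overlap, with means of 1562 ± 44.3 and 5042 ± 54.8 (SD, n = 3 each). Its log2 fold change of -1.69 had a standard error of 0.0344 (95% interval -1.76 to -1.62, limma, adjusted p = 6.62e-22), or 31.0% of the insulin level. In bulk RNA, fewer cells that express a gene and less RNA per cell cannot be told apart.

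**Figure D4:**
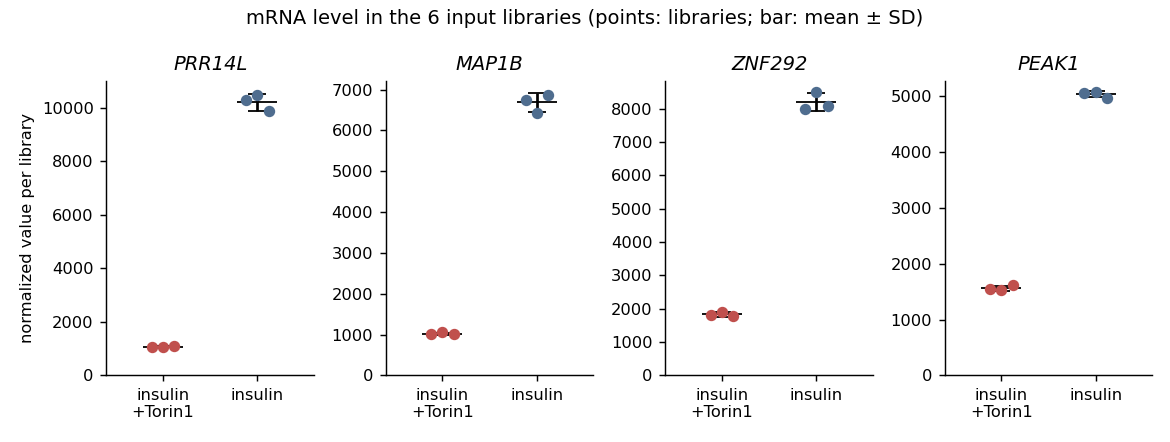
Normalized mRNA value (vertical axis, from 0) of PRR14L, MAP1B, ZNF292 and PEAK1 in the 3 insulin+Torin1 libraries at left and the 3 insulin libraries at right of each panel. Points are libraries and bars are the mean ± SD, and in no panel do the groups overlap.

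With 43.4% of genes called higher beside those called lower, a call alone says little. By the size of the change, all 4 passed limma's test for a change beyond 1.5-fold, with adjusted p from 4.40e-25 to 2.01e-18, as did 22.5% of tested genes downward. From the lowest log2 fold change, PRR14L ranked 162nd, MAP1B 275th, ZNF292 506th and PEAK1 915th, among the lowest 1.16%, 1.98%, 3.65% and 6.60% of genes. The median log2 fold change of all tested genes was 0.02 and their lower quartile -0.68. Since site numbers go with mRNA level, the choice of genes by site loss itself favoured low ranks.

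The members also differed among themselves. The log2 fold change of PRR14L minus that of MAP1B was -0.54 (standard error 0.0579), that of MAP1B minus ZNF292 was -0.54 (0.0547), and that of ZNF292 minus PEAK1 was -0.47 (0.0547). For each of these neighbouring pairs, the ratios between the genes in the Torin1 libraries did not overlap those in the insulin libraries. The order of the mRNA changes was therefore PRR14L, MAP1B, ZNF292 and PEAK1. The site losses over the whole lists, on which the members were chosen, had the same order, so nothing is read from that. Under replicate 1 alone the order was another, with losses of 50 for MAP1B, 49 for PRR14L, 30 for PEAK1 and 19 for ZNF292. By percentage of the whole lists, MAP1B had slightly fewer sites than PRR14L.

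Set beside the sites, the mRNA level with Torin1 was 10.6% of the insulin level for PRR14L and the number of sites 11.8% of the insulin number. For MAP1B these were 15.3% and 11.1%, for ZNF292 22.3% and 25.6%, and for PEAK1 31.0% and 36.6%. The site numbers include positions that only the Torin1 list holds. They also depend on the replicate under which positions are listed: under replicate 1 alone the site percentages were 50% for ZNF292 and 51.6% for PEAK1. Without the positions listed under 1 insulin replicate, which can only raise them, they reached 54.8% and 94.9%. A site is found only where reads cover it, so the number of sites depends on the amount of RNA, and whether methylation per molecule differed was not tested. Among the 56 tested genes with 50 or more insulin sites, the log2 ratio of site numbers and the log2 fold change of mRNA correlated across genes with Pearson's r = 0.80 and Spearman's rho = 0.79 (0.77 and 0.76 over the 52 genes without the members). These genes share the same libraries and lists, so they are not independent replicates and no p is given.

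These genes were admitted by their sites in the insulin list alone, which favours genes with much RNA there, so their values are only a setting for the members. Their median log2 fold change was -1.34, and 24 of the 56 lay below -1.5. PRR14L was the lowest of them in mRNA, MAP1B 5th, ZNF292 9th and PEAK1 18th. TSC1, which encodes a subunit of the complex that restrains mTOR, followed PRR14L closely at -3.04 without being a member, and USF3, at -3.01, had 16.7% of its insulin number of sites. SPEN, an RNA-binding repressor, had a higher mRNA level with Torin1 (0.36) and 82.2% of its insulin number of sites. MKI67, the proliferation marker, was at -0.86 and 48.3%, and the nuclear speckle genes SON and SRRM2 were at -0.14 and -0.11 with 67.4% and 57.9%. SRRM2's direction was reversed when libraries were scaled to equal totals.

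**Figure D5:**
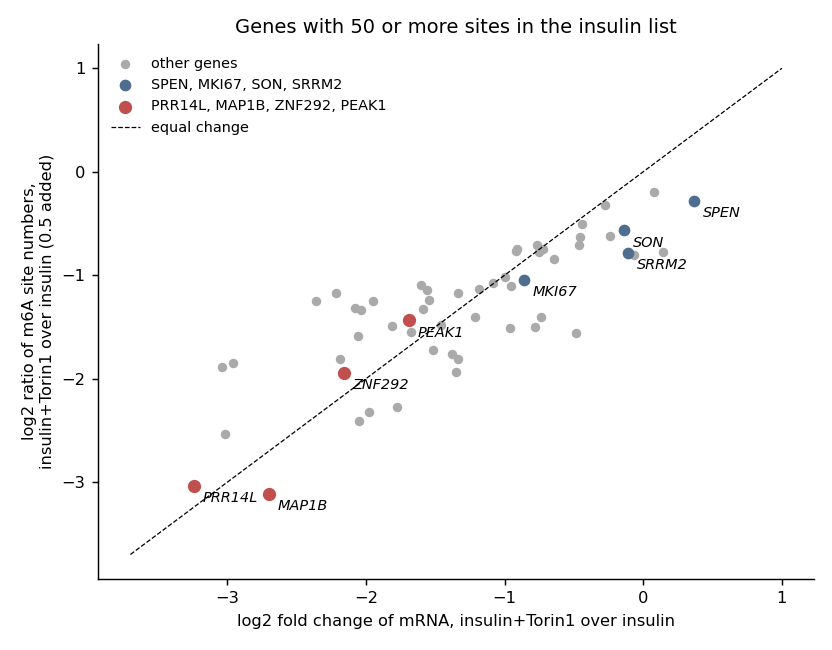
Log2 ratio of m6A site numbers (vertical axis, 0.5 added to each number) against the log2 fold change of mRNA (horizontal axis), both insulin+Torin1 over insulin, for the 56 tested genes with 50 or more insulin sites. PRR14L, at -3.24 on the horizontal axis, MAP1B and ZNF292 lie toward the lower left, and PEAK1, 18th lowest in mRNA, lies nearer the middle. All 4 members are close to the dashed line of equal change, and SPEN is at 0.36 at the upper right.

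Reads at shared positions put the members in another order, MAP1B, PRR14L, PEAK1 and ZNF292 from the lowest median log2 ratio. Over the 832 genes with 5 or more positions under replicate 1 in both lists, the median log2 read ratio and the mRNA log2 fold change correlated with Pearson's r = 0.88 and Spearman's rho = 0.87, again across genes and without a p.

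Counts of genes with related functions are read against the 42.5% of all tested genes called lower and the 43.4% called higher. Of 31 other microtubule-associated protein genes tested, 15 fell and 14 rose, and the median of their log2 fold changes was -0.22, against 0.02 for all tested genes. MAP1LC3B, whose protein marks autophagosomes, fell to 865 ± 43.5 units with Torin1, against 3602 ± 218 with insulin (-2.06). MAP2, the dendritic microtubule protein, rose to 243 ± 4.58 with Torin1, against 52.7 ± 17.2 with insulin (2.24). MAP7D3 rose by 1.70, and the low-level gene MAP1LC3B2, a near copy of MAP1LC3B whose reads may be shared with it, fell by 2.42 on the log2 scale. The closest relatives of MAP1B were MAP1S at -1.05 and MAP1A at -0.26, where MAP1A did not pass the test (limma, adjusted p = 0.0588). Quantile normalization gave 13 lower and 10 higher and turned the direction of CAMSAP1 and CAMSAP2.

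Of 22 other genes of the PEAK1 kinase family and its adhesion signalling partners, 14 fell and 5 rose, against 42.5% and 43.4% of all tested genes, with a median of -0.19. CRKL, an SH2 and SH3 adaptor of adhesion signalling, fell to 1967 ± 34.7 units with Torin1, against 9145 ± 79.5 with insulin (-2.22). The adaptors SHC1 and GRB2, which bind PEAK1, fell by 1.42 and 1.02 on the log2 scale. The sister pseudokinase PRAG1, listed as SGK223, rose to 121 ± 13.7 with Torin1, against 35.3 ± 5.69 with insulin (1.75). With equal totals 10 were lower and 7 higher, with quantile normalization 10 and 9, and under both VCL and YWHAE changed direction.

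For PRR14L, the 21 other genes listed were of the PRR14 family, the PP2A-B56 phosphatase and the midbody, and also CBX1, CBX3 and CBX5. Of the 21, 9 fell and 9 rose, against 42.5% and 43.4% of all tested genes, with a median of 0.06. CBX1, CBX3 and CBX5, at 0.75, 0.50 and 0.16, were all among those that rose. PRR14 itself fell to 1129 ± 55.6 units with Torin1, against 2020 ± 72.0 with insulin (-0.84), a smaller change than that of PRR14L. CEP55, a midbody protein of abscission, was at -1.23, PPP2R5E, a B56 subunit, at -0.89 and PPP2CA, the catalytic subunit, at -0.80. With equal totals 7 were lower and 11 higher, and with quantile normalization, which turned RACGAP1 and ANLN, 6 and 10.

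Among 21 relatives of ZNF292 and other large zinc finger genes, 12 fell and 5 rose, against 42.5% and 43.4% of all tested genes, with a median of -0.14. RLF, a paralogue of ZNF292, fell to 1603 ± 27.2 units with Torin1, against 6782 ± 195 with insulin (-2.08), close to ZNF292 at -2.16. ZNF654, another relative, named here after its value was seen, fell to 290 ± 17.2 with Torin1, against 865 ± 33.3 with insulin (-1.58). HIVEP1, a large enhancer-binding factor, was at -2.10. ZNF462 and ZNF521, by contrast, rose by 3.58 and 2.11. With equal totals 10 were lower and 7 higher and with quantile normalization 11 and 7, and ZNF106 changed direction under both and ZNF609 under the second.

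The genes most like each member over the 6 libraries were found by the root mean square distance of log2 values centred on the insulin mean. For PRR14L they were the kinase gene WNK3 at a distance of 0.0333, with 204 ± 8.14 units with Torin1 and 1908 ± 68.6 with insulin, and THSD1 at 0.0595. For MAP1B they were ZNF280B at 0.0553 and the muscle sodium channel gene SCN4A at 0.0707. For ZNF292 they were REV3L, the catalytic subunit of DNA polymerase zeta, at 0.0297 and SBNO1 at 0.0359. For PEAK1 they were YRDC, a tRNA modification enzyme, at 0.0116 and the ubiquitin ligase gene SMURF1 at 0.0249. Within a distance of 0.1 lay 6 genes for PRR14L, 12 for MAP1B, 74 for ZNF292 and 182 for PEAK1. Values centred on the insulin mean make this distance mostly a difference in log2 fold change. The counts follow the members' ranks by log2 fold change and add nothing to them.

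The input libraries held 11418114 to 11438881 normalized units with Torin1 and 12424643 to 12528454 with insulin. The worth of 1 read, read from the grid of low values, gave 11.1 and 8.20 M reads for Torin1 replicates 2 and 3 and 7.33 to 11.8 M reads for insulin, and it was not recovered for Torin1 replicate 1. In the 5 libraries with a recovered grid, the members had 724 to 9361 reads each, a counting error of 1.03% to 3.72%. KRT8, KRT18, VIM and CDH2, the markers for HEK293 or epithelium, summed to 9864 to 9895 units with Torin1 and 4048 to 4154 with insulin. All 4 rose (3 with quantile normalization), and VIM alone had a mean of 7922 with Torin1 and 2915 with insulin. Of 4 tested neuronal markers 1 rose and 3 fell, or 0 and 3 with quantile normalization (summed 544 to 569 with Torin1 and 771 to 859 with insulin). The fibroblast markers COL1A1 and COL3A1 both rose (522 to 544 with Torin1 and 186 to 238 with insulin), and the endothelial marker PECAM1 had no value. Of 2 tested blood markers 2 fell (0 to 10 with Torin1 and 104 to 121 with insulin). The kidney marker LHX1 did not pass the test, although with quantile normalization it was called lower (-0.27). PAX2 was too low to be tested, and ALB was at 5 to 10 units in every library. The part of these differences in the members' values was not tested.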

How the data were processed

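Input RNA-seq and miCLIP were done on 12 samples in 4 groups of 3, taken from the sample labels. Tools listed in the submitters' processing notes are STAR, BWA 0.7.1, DESeq and DESeq2 1.22.2, with no roles given, and the build is hg38. The expression values that the authors deposited for 6 input libraries were normalized and rounded, as the grid of values shows, and were used as a score rather than as counts. Each deposited m6A site gave its reads, substituted reads, 5-base sequence and a replicate, and its value was the fraction of substituted reads, as the authors' columns show. The authors gave 1 list of sites per condition.

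Values were tested as log2(value + 1) of the deposited scores with limma 3.58.1 in R 4.3.3, with a variance trend, for genes at 10 or more in at least 3 libraries, with Benjamini-Hochberg adjustment over all tested genes, two-sided. This scale understates changes of low genes. Sites were counted in RefSeq gene bodies of GRCh38 on the gene's strand with Python 3.11.15, pandas 2.3.3 and scipy 1.17.1, and 97.0% of gene names matched. The strand came from the annotation or, for 2326 genes, from most of their sites. No exon map was used. The expression fit, but not the counting of sites, was tested on simulated data, in which far fewer genes were changed than were called here.

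The members and gene lists were chosen with earlier results of these data known. Named genes were the members, the next 4 by loss of sites, the 4 with the most sites over both lists summed, up to 4 called genes of each list with the largest change, the 2 nearest genes per member, and the 3 positions per list with the most substituted reads. TSC1, MAP1A, MAP1S and ZNF654 were named after their values were seen. Wilson intervals cover counting error only, and limma's intervals the spread between libraries. Not every gene measured is reported here.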

Additional observations from a re-analysis of the deposited data

How the results depend on the processing

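The log2 fold changes of PRR14L, MAP1B, ZNF292 and PEAK1 kept their direction and their call in all 52 combinations of 4 genes and 13 alternatives (other pseudocounts, filter, scaling, variance trend, replicate block and each library left out). With a library left out they ranged from -3.27 to -3.22, -2.73 to -2.68, -2.19 to -2.14 and -1.71 to -1.68, and under the other alternatives from -3.24 to -3.12, -2.70 to -2.52, -2.16 to -1.93 and -1.69 to -1.39. The highest limma adjusted p was 1.30e-06, without the variance trend. Replicate numbers did not pair the libraries (correlations of -0.0234, 0.00972 and -0.00399), and the replicate block called 5983 genes higher and 5867 lower. With equal totals 6681 were higher and 5281 lower, and the median log2 fold change moved by 0.12.

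Site percentages depended more on the settings, and the cause was not tested. With 2 or more substituted reads per site they were 2.56% for MAP1B and 15.2% for ZNF292. With 3 or more they were 0% for MAP1B, 5.88% for ZNF292 and 20.0% for PEAK1. With 10 or more reads they were 2.50%, 12.9% and 24.1%. Under replicate 1 alone ZNF292 stood at 50%. With the positions listed under 1 miCLIP replicate of 1 list dropped, they ranged from 1.96% to 27.9% for PRR14L and 1.01% to 28.2% for MAP1B. For ZNF292 they ranged from 4.44% to 54.8%, and for PEAK1 from 4.95% to 94.9%. The lowest values were without the positions of Torin1 replicate 1. The highest were without those of insulin replicate 1, or for ZNF292 of insulin replicate 2, and every one was below 100%. A position is named under 1 replicate only, so this does not show the sites that would be called without that replicate. Dropping Torin1 positions can only lower a percentage and dropping insulin positions only raise it, so the direction was fixed beforehand. Few reads over the Torin1 sites limit what a missing site can say.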

Other observations

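Tested genes next to the members on the chromosome moved in both directions in the input libraries. On either side of PRR14L, PISD was at -0.73 and DEPDC5, a subunit of the GATOR1 complex upstream of mTORC1, 3836 nt away, at -0.90 on the log2 scale, against -3.24 for PRR14L. Beside MAP1B, MRPS27, 9838 nt away, had 1429 ± 43.2 units with Torin1 and 1080 ± 31.7 with insulin (SD, n = 3 each) and was at 0.40, and MCCC2 was at -0.30. Beside PEAK1, TSPAN3 had 7934 ± 72.8 units with Torin1 and 7936 ± 177 with insulin. Beside ZNF292, CGA, which encodes the common subunit of the glycoprotein hormones, was at 69.7 ± 9.29 units with Torin1 and 501 ± 70.6 with insulin (-2.83), 60459 nt away, and GJB7 did not pass the test (limma, adjusted p = 0.0505). The neighbours given were chosen by position alone. The difference between a member and its neighbours was not tested.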
